A study of Mus musculus with 2 samples.

Results

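The genes described here are 38 genes of S phase and DNA replication, out of 27842 genes listed in either of the deposited tables. They were taken as a named list and not by a rule on their values, but with earlier results of these data known. All 38 were present in both tables. Single-cell RNA sequencing with the Singleron GEXSCOPE kit was run on bone marrow from the femurs and tibias of mice of the C57/BL6 strain. Control mice had received sodium citrate solution and had normal blood sugar. T1D mice had received streptozotocin, which destroys the insulin-producing cells of the pancreas and serves as a model of type 1 diabetes, and had high blood sugar. For both libraries the marrow was digested with collagenase I and dispase II and red blood cells were lysed. How many mice stand behind a library, and how old they were, is not given in the sources used here. There was 1 library per group, so no difference below has a replicate check, no test between the conditions was possible, and every interval is a 95% interval that covers counting error only.

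Cells copy their genome once per division, in S phase. Before it, the loaders Cdc6 and Cdt1 place the ring-shaped MCM helicase on origins. Cyclin E and the E2F factors then start the phase, Cdc45, GINS and Mcm10 turn the helicase on, and the polymerases follow, held to DNA by the sliding clamp PCNA. Ribonucleotide reductase, thymidylate synthase and thymidine kinase supply the nucleotides. Transcripts of most of these genes rise around S phase and are low in cells that have left the cycle. In bone marrow the dividing cells are mainly progenitors, erythroblasts, precursor B cells and the early stages of the neutrophil and monocyte lineages, while mature neutrophils do not divide.

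From 12880 control barcodes 12803 cells passed the filters, and from 15771 T1D barcodes 15579, with 57494166 and 52022458 counts in all. Depth differed, with a median of 3633 and 2757 counts per kept cell, and so did the median share of ribosomal RNA, 32.0% and 36.2% of a cell's counts. The libraries listed 253 identical barcodes. Cells were grouped into 30 clusters by genes that did not include the 38, and clusters were named by marker genes, so each class name stands for cells like that type. Pro- or pre-B cells were found in the control library alone (1369 cells). A cluster of 406 cells had 6 markers of stem and progenitor cells but was led by Pf4 and Itga2b, megakaryocyte genes, and has no cell type name here. Further unnamed clusters were led by Ighg2c (246 cells) and by Col1a1 (725 cells, of which 685 from T1D).

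To compare cells of unequal depth, every kept cell was thinned at random to 1000 counts. A cell in which at least 3 of the 38 genes still had a count is called S phase gene-positive below. Of the control cells 2613 were positive, 20.4% (19.7 to 21.1%), and of the T1D cells 3085, 19.8% (19.2 to 20.4%). The ratio of T1D over control was 0.970 (0.926 to 1.02), an interval that includes 1. Other cuts lay on either side of 1, with a ratio of 0.898 (0.843 to 0.958) for at least 5 genes and 1.04 (1.01 to 1.06) for at least 1. Without thinning the shares were 35.6% and 32.6%, which also carry the depth gap. At least 1 count of a gene of the list was left in 46.2% of control and 47.9% of T1D cells after thinning.

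The positive share followed the cell type. It was highest in erythroid cells, 95.1% of 283 control and 93.5% of 246 T1D cells, and next in granulocyte-monocyte progenitors (GMP), the myeloid precursors marked by Mpo and Elane. The planned background was the classes not expected to divide: mature neutrophils, mature B cells, T or NK cells and plasma cells. Mature neutrophils were the lowest, at 0.305% of 1965 control and 0.457% of 2844 T1D cells, with a median depth of 2531 and 2018.5 counts. Most of these control cells (1752) lay in a Clec4d-led cluster and most of the T1D cells (2695) in a Steap4-led one. Neutrophils that carried both immature and mature markers were at the same low level, 0.397% and 0.544%. T or NK cells (8.03% and 5.94%), mature B cells (5.65% and 4.17%) and the class of macrophages or conventional dendritic cells (4.33% and 3.45%) lay above mature neutrophils in both libraries. Plasma cells had 2 of 69 and 6 of 96 positive cells, 2.90% and 6.25%. The planned background thus ran from 0.305% to 8.03% in control and from 0.457% to 6.25% in T1D.

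A large majority of the positive cells also carried genes of the later cycle phases. Of control and T1D positive cells, 84.3% and 82.2% had at least 2 of 24 G2 and mitosis genes, among them Mki67, Top2a and Ccnb1, after the same thinning. The shares among the remaining cells were 19.4% and 22.4%. Within GMP there was no such contrast, 86.0% of positive and 90.2% of other cells in control and 81.3% and 83.2% in T1D. The positive share had erythroid cells and GMP at the top and mature neutrophils near 0. Cells with at least 2 G2 and mitosis genes had the same order. They made up 94.7% and 95.1% of erythroid cells, 86.8% and 81.8% of GMP and 4.58% and 6.61% of mature neutrophils. This order therefore cannot tell S phase from the cell cycle in general. A positive cell is not shown to be in S phase itself, since most such cells held transcripts of both phases.

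**Figure D1:**
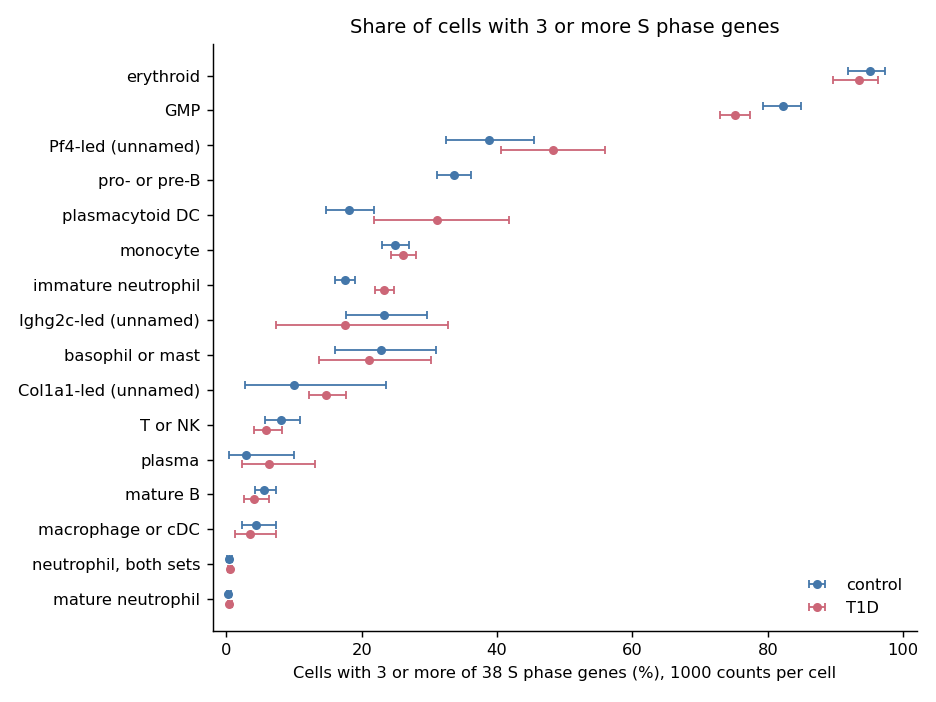
Share of cells (%) with counts of 3 or more of the 38 S phase genes after thinning to 1000 counts, for 16 classes or clusters, with exact 95% intervals; pro- or pre-B cells have a control point only. Immature neutrophils and plasmacytoid dendritic (DC) cells stand to the right in T1D, GMP to the left, and mature neutrophils lie near 0 in both.

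Between the libraries the share differed by class. In immature neutrophils, the stage that carries Ngp, Camp and Ltf, 450 of 2569 control cells were positive, 17.5% (16.1 to 19.0%), and 832 of 3559 T1D cells, 23.4% (22.0 to 24.8%), a ratio of 1.33 (1.20 to 1.48). In GMP the share was lower in T1D, 82.2% (79.2 to 84.9%) of 741 and 75.2% (72.9 to 77.4%) of 1466 cells, a ratio of 0.915 (0.875 to 0.956). The GMP difference was not there when ribosomal RNA was left out and cells were thinned to 500 counts, 61.4% and 61.8%, while immature neutrophils kept theirs at 14.2% and 19.3%. The median ribosomal RNA share of GMP was 23.1% in control and 27.1% in T1D. Plasmacytoid dendritic cells, the producers of type I interferon, were positive in 87 of 481 control cells (18.1%, 14.7 to 21.8%) and 28 of 90 T1D cells (31.1%, 21.8 to 41.7%). Hemoglobin RNA in them stood at 658 and 1148 counts per 1000000, summed over 4 genes, and its part was not tested. Monocytes stood at 24.99% and 26.1% with a ratio of 1.04 (0.940 to 1.16), and basophils or mast cells at 22.9% and 21.2% with a ratio of 0.924 (0.568 to 1.502). The Pf4-led cluster stood at 38.8% and 48.3%, and the interval of its ratio, 0.996 to 1.56, just included 1. Hemoglobin RNA there stood at 277 and 541 on the same scale.

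The immature neutrophil difference lay partly in the mix of stages and partly within them. The class was made of 4 clusters. In a Neil3-led one 43.4% of 845 control and 45.3% of 1263 T1D cells were positive, and in an Fcnb-led one 20.1% of 259 and 34.7% of 600. The later stages were nearly free of positive cells, 2.39% and 3.47% in an Orm1-led cluster and 1.02% and 2.47% in an Olfm4-led one. All 4 clusters had the higher share in T1D, with intervals that did not overlap in the Fcnb-led cluster alone (15.4 to 25.5% and 30.9 to 38.6%). Weighted by the control library's mix of these clusters, the T1D share was 20.3% in place of 23.4%. Hemoglobin RNA, foreign to these cells, also moved, from 250 to 679 CPM summed over 4 genes (CPM, a gene's counts scaled to 1000000 summed counts of the class). Its part in the difference was not tested. In mature neutrophils, with 1243 and 1821 CPM of hemoglobin RNA, the positive share was 0.305% and 0.457%.

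Monocyte clusters behaved alike, with 65.0% and 73.7% in an Itga1-led cluster, and 18.5% and 24.8%, and 5.30% and 7.12%, in 2 others led by Saa3. Weighted by the control mix of these clusters, the T1D monocyte share was 29.7% against 24.99% in control, above its plain value of 26.1%. In GMP the largest cluster, led by Elane, stood at 80.0% and 72.6% and a Cd34-led one at 88.5% and 81.2%, whereas a small Mpo-led cluster stood at 71.9% and 77.2%. Pro- or pre-B cells were positive in 460 of 1369 control cells, 33.6% (31.1 to 36.2%). Their Igll1-led cluster, with the surrogate light chain of large cycling precursors, reached 46.9%, and the Rag1-led one, which rearranges antigen receptor genes, 15.3%.

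**Figure D2:**
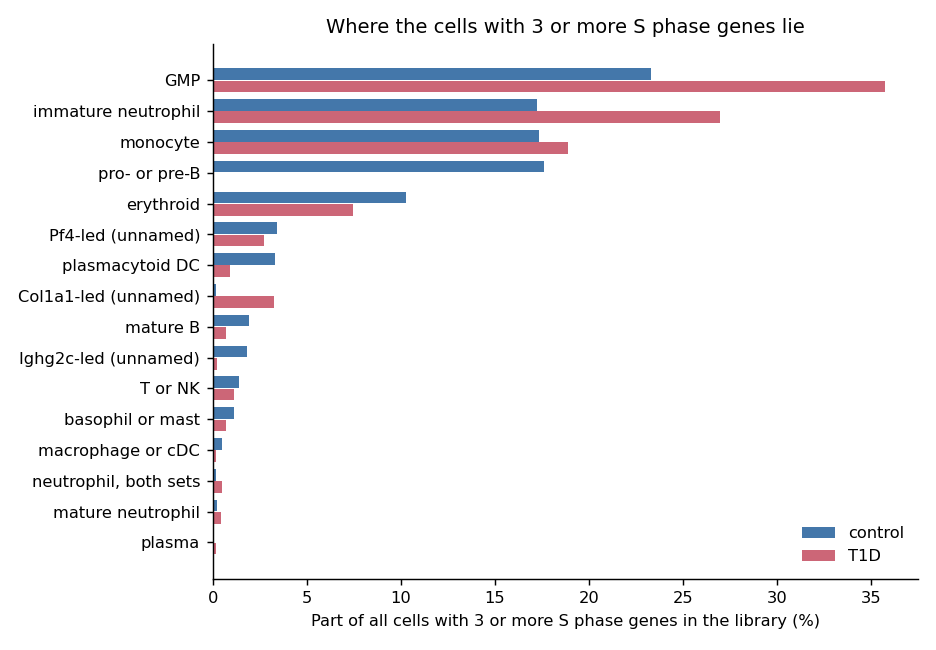
Part (%) of each library's S phase gene-positive cells that lay in each class or cluster, control and T1D; bars start at 0. GMP and immature neutrophils hold more of the T1D cells, and the pro- or pre-B bar exists in control only.

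The similar overall share thus hid a different make-up. GMP held 23.3% of the control library's positive cells and 35.7% of those in T1D, and immature neutrophils 17.2% and 27.0%. These parts also carry class size. GMP made up 5.79% of all kept control cells and 9.41% of those in T1D, and immature neutrophils 20.1% and 22.8%. Pro- or pre-B cells held 17.6% in control and 0 of 3085 in T1D. Monocytes held 17.3% and 18.9% and erythroid cells 10.3% and 7.46%. Outside pro- or pre-B cells the positive share was 18.8% in control and 19.8% in T1D, a ratio of 1.05 (1.00 to 1.105), and 20.3% in T1D when weighted by the control library's class mix.

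E2F factors act through a short DNA element near the start of many of these genes, so the start regions were searched for it. RefSeq promoters (build GRCm38.p6, 250 bases before to 50 after the start) were matched for 32 of the 38 genes. The deposited counts were made on mm9, so these coordinates do not come from the files. An E2F element (TTTCCCGC, TTTGGCGC, TTTGCCGC or TTTCGCGC, either strand) was found in 14 of the 32, 43.8%, against 2.61% of all 27025 genes with a promoter of the same length. The 14 were Cdc6, Cdt1, Clspn, Dnmt1, Dtl, Hells, Lig1, Mcm3, Mcm5, Mcm6, Mcm7, Pclaf, Pola1 and Uhrf1. Their 20 matches lay between -219 and 38 bases from the start, with a median of -54.5, and some overlap one another, as in Mcm6. A CCAAT element, the letters CCAAT on either strand, was found in 19 of the 32, 59.4%, against 41.1%. The letters TTTGAA, also searched for on either strand, were found in 4 of the 32, 12.5%, against 20.2%. These are letter matches and show neither binding nor a cause. Shown here, 5′ to 3′ on the gene's strand with the E2F letters in capitals, are windows of genes whose levels are set against each other below.
Mcm6 (chr1:128359735-128359762, minus strand): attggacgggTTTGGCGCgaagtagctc
Mcm5 (chr8:75109346-75109373, plus strand): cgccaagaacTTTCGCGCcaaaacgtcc
Mcm7 (chr5:138171850-138171877, minus strand): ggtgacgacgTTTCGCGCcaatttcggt
Lig1 (chr7:13278842-13278869, plus strand): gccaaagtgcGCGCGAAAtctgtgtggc
Pclaf (chr9:65890308-65890335, plus strand): cttggagcgcGCGGGAAAgagacccatt
Cdc6 (chr11:98908003-98908030, plus strand): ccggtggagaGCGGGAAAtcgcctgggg

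The 250 bases before the start follow for Mcm6, and for Rrm2 and Tyms, the genes of nucleotide supply that went opposite ways between the libraries in nearly every class. Capitals mark E2F and CCAAT letters. Mcm6 held 3 E2F and 2 CCAAT matches, Rrm2 0 and 1, and Tyms none of either, which says only that these letters are not in these windows.
Mcm6 (chr1:128359706-128359955, minus strand): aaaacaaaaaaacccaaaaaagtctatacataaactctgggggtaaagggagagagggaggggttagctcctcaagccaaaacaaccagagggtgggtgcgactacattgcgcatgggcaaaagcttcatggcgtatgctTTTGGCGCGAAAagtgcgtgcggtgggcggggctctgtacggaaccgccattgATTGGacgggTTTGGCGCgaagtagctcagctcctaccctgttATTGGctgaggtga
Rrm2 (chr12:24708004-24708253, plus strand): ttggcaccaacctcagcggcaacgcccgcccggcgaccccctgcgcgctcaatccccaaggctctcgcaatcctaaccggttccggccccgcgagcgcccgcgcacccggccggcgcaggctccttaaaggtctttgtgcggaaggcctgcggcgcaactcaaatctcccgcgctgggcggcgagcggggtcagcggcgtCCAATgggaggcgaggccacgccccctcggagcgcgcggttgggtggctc
Tyms (chr5:30073626-30073875, minus strand): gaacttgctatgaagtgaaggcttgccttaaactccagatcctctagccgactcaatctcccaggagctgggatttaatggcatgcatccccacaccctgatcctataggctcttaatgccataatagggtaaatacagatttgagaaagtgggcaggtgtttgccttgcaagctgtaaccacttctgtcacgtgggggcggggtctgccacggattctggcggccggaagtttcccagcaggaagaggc

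Levels of the single genes are next given over all kept cells, as CPM of the summed counts in control and then T1D, by role. These values mix differences within cells with differences in cell shares. Depth makes their counting intervals narrow, and values of different genes are not compared, since the tables hold no gene lengths. The MCM helicase genes stood at 112 and 97.1 CPM for Mcm2, 112 and 107 for Mcm3, and 122 and 111 for Mcm4. Mcm5 stood at 69.4 and 56.5, Mcm6 at 102 and 97.6, and Mcm7 at 76.4 and 67.5, so all 6 subunits were lower in T1D on this scale. Mcm3, Mcm4 and Mcm6 turned to the other side with TMM scaling (log2 ratios 0.06 for Mcm3 and 0.06 for Mcm6). The origin loaders were lower too, with Cdc6 at 26.5 and 20.2 CPM and Cdt1, which geminin holds back after loading, at 26.9 and 22.6. Of the helicase activators, Cdc45 stood at 21.6 and 18.3 CPM, Mcm10 at 32.6 and 24.3, the GINS subunits Gins1 at 12.5 and 11.8 and Gins2 at 3.49 and 1.90. The primase-polymerase genes had some of the larger differences, with Pola1, the catalytic subunit of polymerase alpha, at 85.2 and 63.8 CPM, 1.33-fold lower (1.28 to 1.40). Prim1, the primase subunit, stood at 31.7 and 22.9, and Pole, the leading-strand polymerase, at 16.5 and 12.9.

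The clamp gene Pcna stood at 192 and 155 CPM, 1.24-fold lower (1.20 to 1.28), and Pclaf, which encodes the PCNA-associated factor and had the most counts of the list, at 353 and 334. The clamp loader subunits parted, with Rfc4 at 32.3 and 23.2 CPM and Rfc2 at 73.8 and 77.2. Lig1, the ligase that joins Okazaki fragments, stood at 84.4 and 81.8. Fen1, the flap endonuclease, had only 66 and 53 counts, near 1 CPM in both libraries. Among the nucleotide suppliers the reductase subunits went apart: Rrm1 stood at 173 and 160 CPM, and Rrm2, the subunit that is made anew in each S phase, at 141 and 169, 1.20-fold higher (1.16 to 1.23). Tyms, thymidylate synthase, stood at 38.5 and 25.3 CPM, 1.52-fold lower (1.42 to 1.63), which was the largest difference of the list at 10 CPM or more. Dut, the dUTPase, stood at 94.0 and 71.9 CPM, 1.31-fold lower (1.25 to 1.36), and Tk1, thymidine kinase, at 29.2 and 30.3. Rpa2, a subunit of the complex that covers single-stranded DNA, stood at 47.7 and 53.9, Ung, which removes uracil from DNA, at 7.38 and 7.53, and Slbp, which binds the stem-loop of histone messages, at 40.6 and 28.1, 1.44-fold lower (1.35 to 1.54).

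The chromatin genes of the list, summed, had a T1D over control ratio of 0.915 (0.895 to 0.935), near that of all 38 genes (0.908). Dnmt1, the maintenance methyltransferase, stood at 150 and 133 CPM, Uhrf1, which guides it, at 82.9 and 73.9, the remodeller gene Hells at 61.8 and 61.9, and Chaf1b, a subunit of the histone chaperone CAF-1, at 10.6 and 11.3. Of the control genes, E2f1, a transcription factor of the G1 to S step, stood at 19.9 and 24.8 CPM, 1.24-fold higher (1.15 to 1.35). The cyclin E genes stood at 17.7 and 15.1 for Ccne1 and 21.5 and 18.4 for Ccne2. Dtl, part of the ligase that degrades Cdt1, stood at 52.7 and 44.9, 1.18-fold lower (1.11 to 1.24), and Clspn, the fork checkpoint mediator claspin, at 70.8 and 68.1.

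Summed, the 38 genes took 2648 CPM in control and 2404 in T1D, a ratio of 0.908 (0.901 to 0.915). At 10 CPM or more in the higher library, 35 of the 38 could be compared. Their median log2 ratio, with 5 CPM added to both libraries, was -0.17, against -0.11 for all 7372 genes at that level. The counting interval lay below 1 for 25 of the 35, where the background over all genes was 55.1%, and above 1 for 4 (Rrm2, E2f1, Rpa2 and Rfc2), where it was 25.9%. With pro- or pre-B cells left out, the median was -0.11, the same as for all genes. No gene of the list met a 2-fold size rule over all kept cells (2-fold, 50 CPM in the higher library and an interval without 1), which 3.49% of all eligible genes met. With TMM scaling the all-gene median shifted by 0.12, the list's median became -0.04, and 8 genes of the list (Clspn, Gins1, Lig1, Mcm3, Mcm4, Mcm6, Pclaf and Rrm1) turned from below to above control, Pclaf to a log2 ratio of 0.05. The split of the list was 7 above and 28 below on the plain scale, 15 and 20 after TMM, 13 and 22 after DESeq2 scaling, and 13 and 23 on a sum free of ribosomal RNA.

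**Figure D3:**
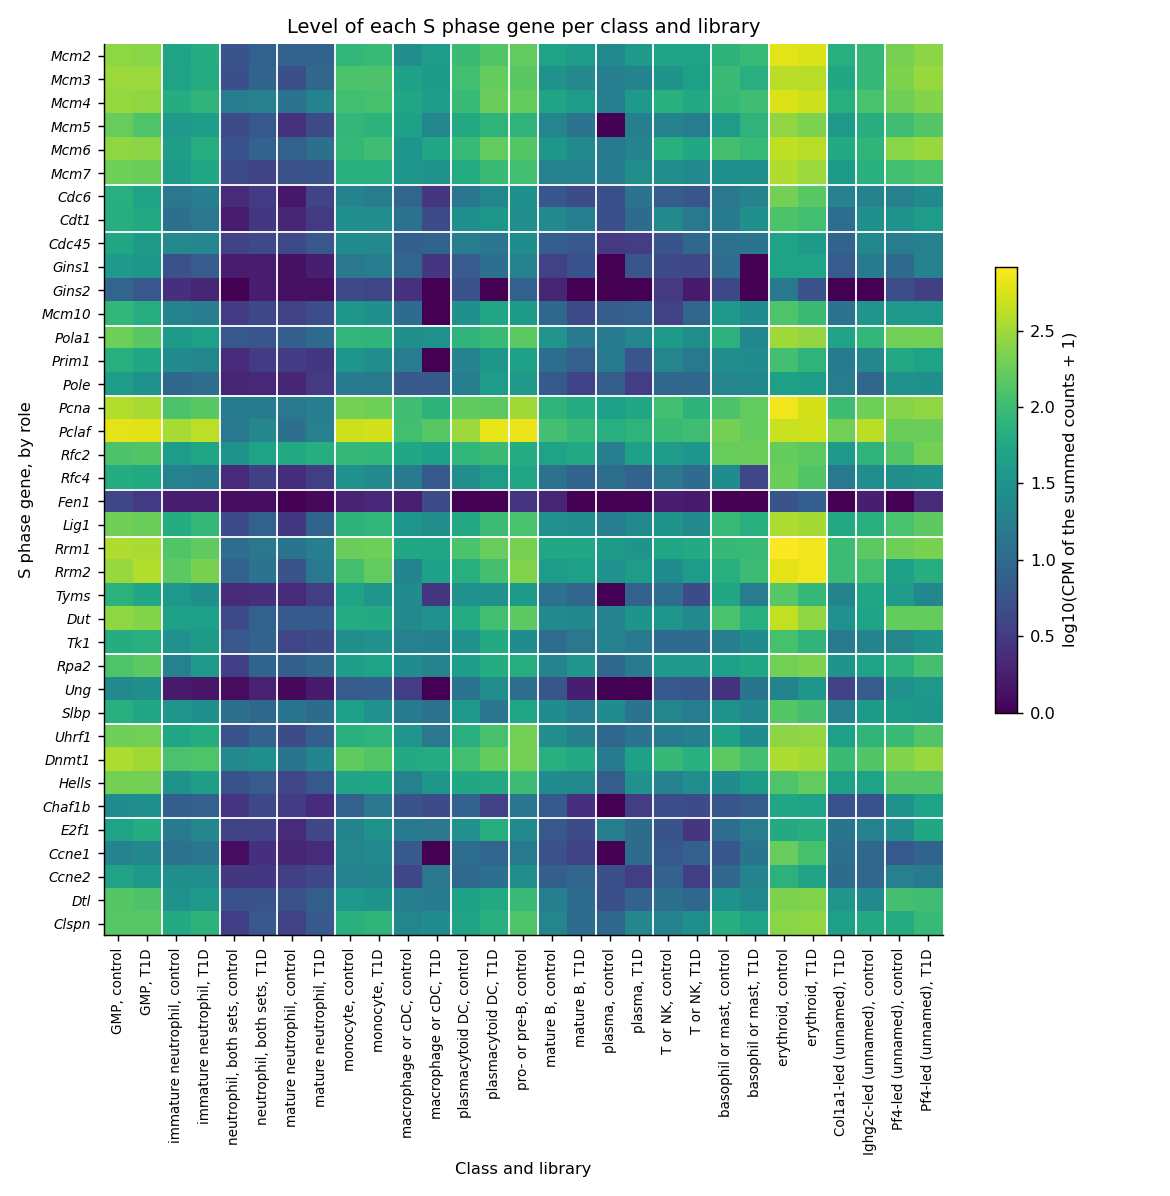
Level of each of the 38 genes (rows, by role) in each class or cluster with at least 50 cells in the library (columns), as log10 of CPM plus 1; rows are to be read across, not against each other. Erythroid cells, GMP and the Pf4-led cluster are bright for most genes, the neutrophil classes with mature markers are dark, and Fen1 is near 0 throughout.

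Most genes of the list had a common pattern over cell types. Erythroid cells were the highest of 15 classes or clusters for 33 of the 38 genes in control, and of 14 for 30 in T1D. Their summed level was 9764 CPM in control and 8671 in T1D, against 5937 and 5650 in GMP, 2671 and 2742 in monocytes, 1791 and 2205 in immature neutrophils, and 223 and 307 in mature neutrophils. Spearman's correlation of a gene with the sum of the other members over these classes, which share their libraries, was at least 0.81 for 36 of the 38 genes in control. The lower values were those of Fen1 (0.53), with very few counts, and Rfc2 (0.74). In T1D 5 genes were below 0.81, Fen1 (0.49), Gins2 (0.56), Rfc2 (0.65), Ccne1 (0.74) and Ung (0.79).

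A few genes departed from it. Ccne1 was largely an erythroid transcript, with 173 and 117 CPM there and at most 20.1 and 22.5 in any other class, while the other cyclin E gene, Ccne2, reached 46.6 and 36.3 CPM in GMP. Pclaf was highest in pro- or pre-B cells in control (676 CPM) and in plasmacytoid dendritic cells in T1D (649 CPM). Hells was highest in GMP, at 205 CPM in both libraries. Ung was highest in the Pf4-led cluster, at 28.6 and 34.6 CPM. Rfc2 stood at 60.1 and 65.6 CPM in mature neutrophils, where every other gene of the list was at or below 19.6, and it was highest in basophils or mast cells in control (172 CPM). The Rfc2 gene overlaps Lat2 on the opposite strand in the GENCODE M21 annotation, and Fen1 overlaps Tmem258. The counting is not stated to use strand, so reads of such pairs cannot be told apart. In all, 11 of the 38 overlap a protein-coding gene (Ccne2, Cdc45, Cdt1, Fen1, Gins2, Lig1, Mcm7, Pclaf, Rfc2, Rfc4 and Tk1). The share of all genes with such an overlap was not computed, so this number has no background.

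**Figure D4:**
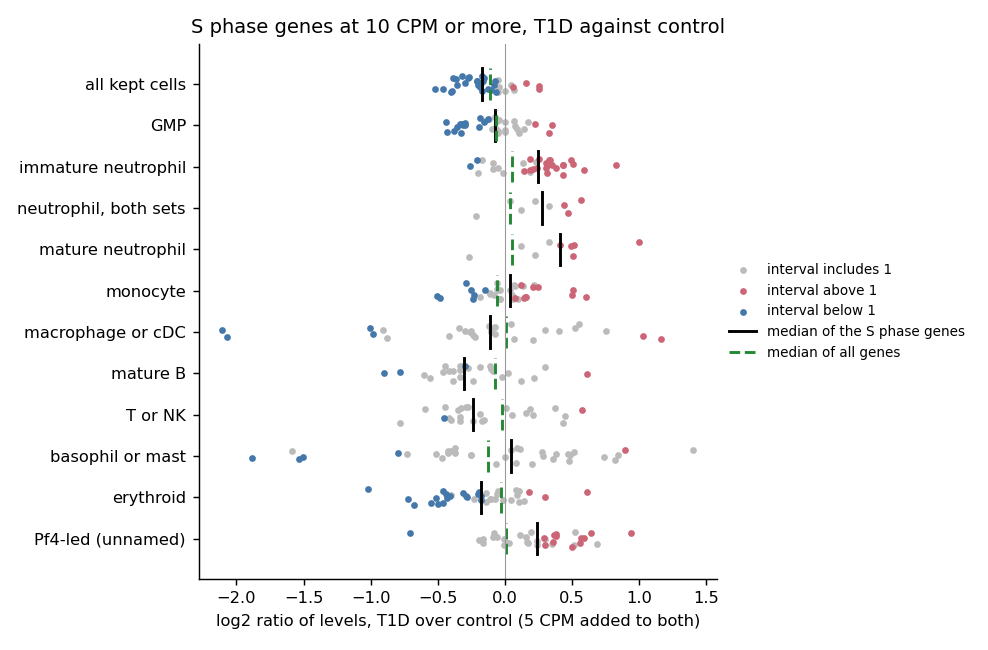
Log2 ratio of T1D over control (5 CPM added to both) of each S phase gene at 10 CPM or more, over all kept cells and in 11 classes or clusters; colour gives the side of the counting interval, the black bar the median of the list and the dashed green bar that of all genes. The list's median lies to the right of all genes in immature neutrophils (0.25 and 0.05) and in the Pf4-led cluster (0.24 and 0.00), and to the left in erythroid cells (-0.18 and -0.03), mature B cells (-0.31 and -0.08) and T or NK cells (-0.24 and -0.02). It lies to the right as well in mature neutrophils (0.41 and 0.05) and in neutrophils with both marker sets (0.28 and 0.04). There only 9 and 8 genes reached 10 CPM, some of them through T1D alone. In mature B cells Tyms, Prim1 and Rfc4 reached 10 CPM through control alone, as did Tyms and Rfc4 in T or NK cells. This favours a lower T1D value, so these medians carry the filter too.

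In the immature neutrophil class the list as a whole was higher in T1D, and levels of the class also carry its mix of clusters. By cluster, the list summed to 3313 and 3664 CPM (Neil3-led) and 2294 and 2632 (Fcnb-led). The sums were 379 and 546 in the Orm1-led and 243 and 425 in the Olfm4-led cluster. In the whole class 32 genes were at 10 CPM or more. Of these, 21 had a counting interval above 1, against 32.9% of all genes, and 2 below it (Tyms and Slbp), against 22.6%. The helicase genes summed to 273 and 364 CPM, a ratio of 1.33 (1.27 to 1.40), and the genes of flap removal and ligation had a ratio of 1.37 (1.24 to 1.51). Mcm6 stood at 40.9 and 64.0 CPM, 1.56-fold higher (1.39 to 1.76), Mcm7 at 37.6 and 54.9, 1.46-fold higher (1.29 to 1.65), and Mcm3 at 47.6 and 62.1, 1.31-fold higher (1.17 to 1.46). Rrm2 stood at 150 and 215 CPM, 1.44-fold higher (1.35 to 1.53), Lig1 at 62.9 and 86.4, 1.37-fold higher (1.25 to 1.51), and Rfc2 at 39.3 and 52.6, 1.34-fold higher (1.18 to 1.52). Pclaf stood at 339 and 427 CPM, 1.26-fold higher (1.21 to 1.31). Rpa2, below the 50 CPM set for full values and named for its size after the values were seen, stood at 18.3 and 36.3, 1.98-fold higher (1.67 to 2.35). Helicase activators, summed at 47.4 and 44.4 CPM (0.828 to 1.06), did not share the difference beyond counting error. Under every scaling tried, more of the list lay above 1 than below. It was 24 and 8 with TMM scaling and 28 and 6 on a sum free of ribosomal RNA.

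Other lists of the replication machinery are set beside all genes of immature neutrophils, of which 55.9% stood higher in T1D. Of 28 replication fork and origin genes outside the list, 23 stood higher and 5 lower, with a median log2 ratio of 0.17 and an interval above 1 for 11, and of 9 further genes of nucleotide supply 8 stood higher (median 0.39). Nasp, a histone chaperone, stood at 68.6 and 100 CPM, Gmnn, the Cdt1 inhibitor geminin, at 47.3 and 68.9, and Dck, deoxycytidine kinase, at 46.6 and 62.7. Top1, topoisomerase I, was lower at 310 and 208. The G2 and mitosis genes were split, 13 higher and 11 lower of 24 with a median of 0.03, with Ube2c at 350 and 434 and Cenpf at 272 and 362 CPM but Ckap2l at 51.1 and 39.7. TMM scaling turned this split to 10 and 14. It also left the fork and origin genes at 18 higher and 9 lower. Counted by cells, the later phases did differ. After thinning, 45.7% of control and 54.9% of T1D immature neutrophils had at least 2 G2 and mitosis genes, a ratio of 1.20 (1.14 to 1.26). Among regulators of the G1 to S step, E2f8 stood at 70.5 and 96.7, E2f2 at 109 and 141 and the cell cycle kinase gene Cdk6 at 40.7 and 54.9.

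In GMP the list was at the level of all genes, a median of -0.07 for 36 members and -0.07 for all, and its genes differed among themselves. On the plain scale 10 stood above control and 26 below, but DESeq2 scaling gave 17 and 19, and a sum free of ribosomal RNA 18 and 19. The interval lay below 1 for 14, against 32.0% of all genes, and above 1 for 3 (Rrm2, E2f1 and Rpa2), against 19.5%. Cdc6 stood at 65.7 and 47.2 CPM, 1.39-fold lower (1.20 to 1.61), and Tyms at 74.7 and 54.2, 1.38-fold lower (1.20 to 1.58). Mcm5 stood at 171 and 131, 1.31-fold lower (1.20 to 1.43), Cdc45 at 50.6 and 38.4, 1.32-fold lower (1.12 to 1.55), and Mcm10 at 83.8 and 65.3, 1.28-fold lower (1.13 to 1.46). Rrm2 stood apart at 295 and 376 CPM, 1.28-fold higher (1.20 to 1.35), and Pclaf at 628 and 606 with an interval that included 1 (0.924 to 1.01). By role, origin loading (0.807), helicase activation (0.797) and the primase-polymerase genes (0.792) had the lower ratios, and nucleotide supply was at 1.01 (0.978 to 1.04). Of all genes in GMP 58.7% stood lower in T1D. Further genes of nucleotide synthesis outside the list were lower in 13 of 16, among them Impdh2, of guanine nucleotide synthesis, at 133 and 74.1 CPM and Cad, of pyrimidine synthesis, at 58.2 and 32.4. G2 and mitosis genes were lower in 22 of 24, a median of -0.16 (16 of 24 on a sum free of ribosomal RNA), with the spindle checkpoint kinase gene Bub1 at 94.4 and 63.4.

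Monocytes showed members on both sides. Of 35 genes, 10 had an interval above 1, against 23.9% of all genes, and 7 below, against 34.5%, with a median of 0.04 against -0.06 for all. Rrm2 stood at 115 and 165 CPM, 1.44-fold higher (1.34 to 1.55), and Mcm6 at 87.0 and 104, 1.20-fold higher (1.10 to 1.31). Uhrf1 (70.1 and 78.3) and Clspn (70.9 and 79.5) were both 1.12-fold higher. Dnmt1 went the other way at 160 and 136 CPM, 1.18-fold lower (1.10 to 1.27), as did Mcm5 at 84.6 and 75.9, 1.11-fold lower (1.01 to 1.23). Pclaf stood at 502 and 528 CPM, 1.05-fold higher (1.01 to 1.09), but the order turned when cell cycle genes were kept in the clustering (log2 ratio -0.03). G2 and mitosis genes were lower in 21 of 24 in this class, a median of -0.26, where 57.2% of all genes were lower.

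In erythroid cells, which depend on fast divisions, the list stood lower in T1D. Of 37 genes, 18 had an interval below 1, against 16.4% of all genes, and 3 above, against 14.3%, and the median was -0.18 against -0.03 for all genes. Dut stood at 452 and 272 CPM, 1.66-fold lower (1.48 to 1.88), Tyms at 142 and 86.9, 1.63-fold lower (1.32 to 2.03), and Tk1 at 117 and 81.1, 1.44-fold lower (1.15 to 1.81), all of the thymidine nucleotide route. The G1 cyclins Ccne1, at 173 and 117, 1.48-fold lower (1.23 to 1.79), and Ccne2, at 73.3 and 49.96, 1.47-fold lower (1.10 to 1.97), went the same way, as did Cdc6 at 202 and 146, 1.39-fold lower (1.18 to 1.65). Rrm1, with the most counts here, stood at 828 and 729 CPM, 1.14-fold lower (1.05 to 1.23). The 2 erythroid clusters were held in different proportion, with 230 of 283 control and 159 of 246 T1D cells in the Cldn13-led one and the rest in a Slc4a1-led one. The summed level of the list was 10194 CPM in control and 9134 in T1D in the Cldn13-led cluster. In the Slc4a1-led cluster it was 8190 and 7978. E2f2, outside the list, went the other way at 137 and 270 CPM.

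The Pf4-led cluster had the list higher and the mitotic genes lower. Of 35 genes, 12 had an interval above 1, against 10.9% of all genes, and 1 below it, against 10.6%. E2f1 stood at 26.3 and 55.1 CPM, 2.10-fold higher (1.31 to 3.39), under the size rule once 5 CPM were added to both, and Rpa2 at 73.5 and 113, 1.53-fold higher (1.14 to 2.07). Clspn (61.9 and 93.6), Rfc2 (135 and 203), Uhrf1 (92.9 and 133) and Lig1 (119 and 156) were between 1.31-fold and 1.51-fold higher. Mcm6, with the most counts here, stood at 248 and 292 CPM (0.992 to 1.40). All 24 G2 and mitosis genes were lower, a median of -0.55, with Hmmr at 114 and 35.9 CPM and Kif23 at 88.2 and 35.9. The share of cells with at least 2 of those genes after thinning was nonetheless 33.6% in control and 41.4% in T1D. With 232 and 174 cells of uncertain identity, the cells in this cluster need not be the same kind in both libraries.

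Replication histone and chaperone genes, kept as a separate list, did not follow the 38 genes everywhere. Besides histone genes the list holds Hmgb2, a chromatin protein, and Stmn1 and Tuba1b, which belong to the microtubules. In GMP (8 genes at 10 CPM, median -0.33), monocytes (7 genes, -0.34) and erythroid cells (8 genes, -0.39) each of them was lower in T1D under the plain, TMM, DESeq2 and ribosomal RNA-free scales. Hist1h1b, a linker histone gene, stood at 501 and 340 CPM in monocytes and 1298 and 900.0 in erythroid cells, and Hist1h4d at 319 and 233 CPM in GMP. In monocytes this ran beside a list of S phase genes split nearly evenly, and Slbp, whose protein binds histone messages, was lower there too. In immature neutrophils 3 histone and chaperone genes were higher and 5 lower, and all 8 lower with TMM scaling.

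The other classes had few counts. In basophils or mast cells 2 genes met the size rule, both lower in T1D, where 5.68% of all eligible genes met it: Tyms at 55.2 and 15.8 CPM (33 and 5 counts) and Pola1 at 71.9 and 22.1 (43 and 7 counts). Over all 11 classes these were the only ones of the list, but the number was 8 with cell cycle genes kept in the clustering, 7 at resolution 2 and 1 at the first start of the clustering. In the other classes no gene of the list met the rule, where the share of eligible genes meeting it was 1.22% in GMP, 1.65% in immature neutrophils, 2.90% in neutrophils with both marker sets and 4.12% in mature neutrophils. It was 2.95% in monocytes, 8.55% in macrophages or conventional dendritic cells, 3.73% in mature B cells, 3.56% in T or NK cells, 2.50% in erythroid cells and 2.67% in the Pf4-led cluster. Dut in basophils or mast cells stood at 119 and 66.4 CPM and Mcm5 at 40.2 and 79.0, 1.97-fold higher (1.08 to 3.60), with 24 and 25 counts. In T or NK cells Pcna stood at 107 and 76.8, 1.40-fold lower (1.10 to 1.78), in mature B cells Pclaf at 109 and 87.8, 1.24-fold lower with an interval that just missed 1 (ratio 0.645 to 0.995), and in macrophages or conventional dendritic cells Pclaf at 109 and 145 (0.995 to 1.78). By counting interval, basophils or mast cells had 1 gene above 1 and 4 below (6.27% and 8.71% of all genes), T or NK cells 1 and 1 (11.4% and 14.2%), and mature B cells 1 and 3 (10.6% and 19.4%). The macrophage or dendritic class had 2 above and 4 below (11.7% and 10.9%). In mature neutrophils 9 genes reached 10 CPM in either library. Some did so through T1D alone, as Rrm2 (4.65 and 14.3 CPM) and Mcm6 (6.97 and 10.9 CPM), which favours a higher T1D value, so their directions are not counted. Without that filter, the summed level of the list had a T1D over control ratio of 1.38 (1.29 to 1.48) in mature neutrophils. The ratio was 1.39 (1.29 to 1.51) in neutrophils with both marker sets and 1.23 (1.21 to 1.25) in immature neutrophils. In mature and immature neutrophils this ratio also carries the mix of clusters. The Clec4d-led cluster of mature neutrophils had 219 CPM in 1752 control cells and 241 in 149 T1D cells. The Steap4-led cluster had 263 CPM in 213 control cells and 312 in 2695 T1D cells.

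A few genes kept 1 direction through nearly every class. They were picked after the values were seen, as genes at 10 CPM in at least 9 of the 11 classes with at most 1 class on the other side. Of the 25 genes of the list measured that widely, 2 were higher by this rule and 4 lower, where it held for 13.7% and 14.6% of all genes measured as widely, so the number of such genes was near the background. Rrm2 was higher in T1D in 11 of 11, with an interval above 1 in 8. In 2 of these, mature neutrophils and neutrophils with both marker sets, it reached 10 CPM through T1D alone, which favours that direction. In the other 9 it was higher in 9, with an interval above 1 in 6. It ranged from 1.09-fold in mature B cells (39.8 and 43.5 CPM) and 1.13-fold in erythroid cells (628 and 710 CPM) to 2.30-fold in macrophages or conventional dendritic cells (19.96 and 45.8 CPM), with 3.07-fold in mature neutrophils at only 4.65 and 14.3 CPM. Rpa2 was higher in 8 of 9, with an interval above 1 in 5. E2f1, measured at that level in 7 classes, was higher in 6, among them monocytes at 19.95 and 30.2 CPM, 1.52-fold higher (1.27 to 1.81).

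On the other side, Tyms was lower in 9 of 9, with an interval below 1 in 7, at 46.6 and 31.9 CPM in monocytes and 35.0 and 28.5 in immature neutrophils. Slbp was lower in 11 of 11, at 43.4 and 29.1 CPM in monocytes and 33.5 and 28.3 in immature neutrophils, with an interval below 1 in 4. Prim1 was lower in 9 of 9, with an interval below 1 in 4, at 67.6 and 53.9 CPM in GMP and 110 and 78.9 in erythroid cells. Rfc4 was lower in 8 of 9, with an interval below 1 in 3, at 184 and 134 CPM in erythroid cells. Counting only classes in which both libraries reached 10 CPM, Tyms was lower in 6 of 6, Slbp in 9 of 9, Prim1 in 7 of 7 and Rfc4 in 4 of 5. TMM and DESeq2 scaling and a sum without ribosomal RNA left these counts of directions as they were, apart from 1 class fewer measured for Tyms with DESeq2 scaling and 2 more, both higher, for Rpa2 without ribosomal RNA. The classes share the 2 libraries, so 11 classes are not 11 independent observations.

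**Figure D5:**
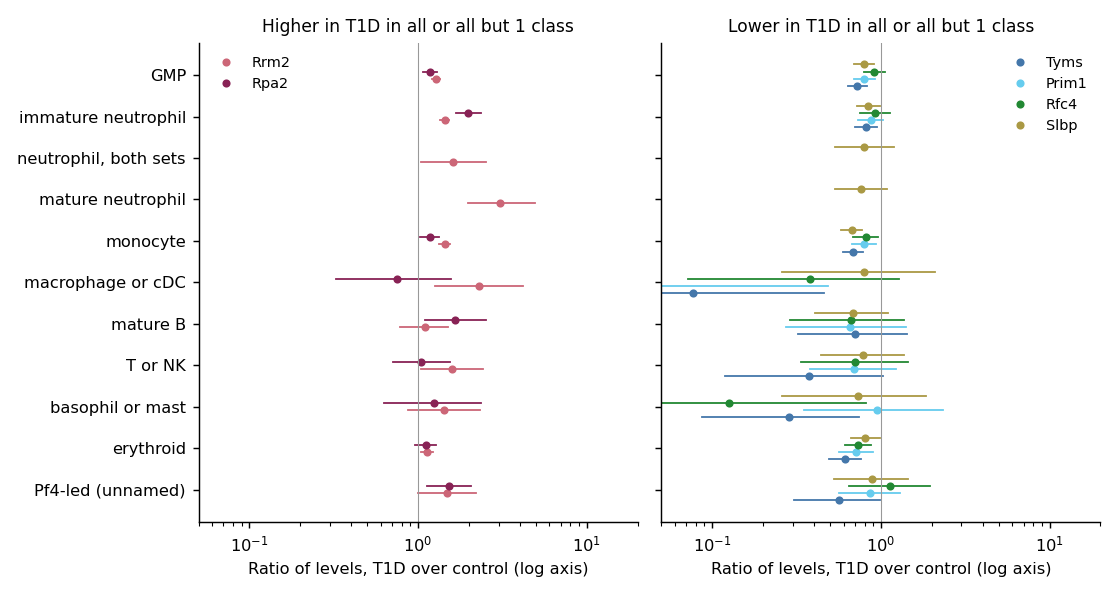
Ratio of levels, T1D over control, on a log axis with counting intervals, for genes of the list that lay on 1 side of 1 in all or all but 1 of at least 9 classes; left, Rrm2 and Rpa2; right, Tyms, Prim1, Rfc4 and Slbp. Points are left out where a gene was under 10 CPM in both libraries and where the T1D count was 0 (Prim1 in macrophages or conventional dendritic cells).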

How the data were processed

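Single cells of 1 control and 1 T1D library were analysed. Per cell and gene, the authors deposited raw counts; the submitters' processing notes name bcl2fastq 2.19, featureCounts and the build mm9. The annotation, strand setting and any collapse by molecular identifier are each not given in the sources used here. Without collapse, reads are not independent molecules, so intervals cover counting error only.

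Barcodes passed with 200 genes or more and no more than 20% mitochondrial counts (77 and 192 removed). Clustering used 3037 variable genes without the 38 genes or other cell cycle lists, 30 principal components and Leiden at resolution 1, taking the best of 10 starts; clusters were named from at least 3 markers. No doublets were called. Levels are summed counts per class as CPM; log2 ratios add 5 CPM; genes needed 10 CPM. Ratio intervals are exact binomial, shares Clopper-Pearson, ratios of shares on the log scale, all 95%. Cells were thinned to 1000 counts. The size rule was 2-fold, 50 CPM and an interval without 1. In a class, full values went to up to 6 genes at 50 CPM with an interval without 1, by size of ratio, and to the gene with the most counts; up to 3 genes per further list followed the same rule. The members and lists were chosen with earlier results of these data known. With 1 library per group nothing was tested. Planned protein features were not used here. Scripts were tested on simulated data. Python 3.11.15, numpy 2.4.6, scipy 1.17.1, pandas 2.3.3, scanpy 1.11.5, igraph 0.11.9 and matplotlib 3.10.9 were used. Alternatives changed depth, scaling, filters and clustering.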

Additional observations from a re-analysis of the deposited data

Results flagged for a closer look

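The T1D over control ratio of the positive share lay below 1 in GMP (0.915) and above 1 in immature neutrophils (1.33), so the classes moved in opposite directions between the same libraries. The difference between the classes was not tested, since each condition has 1 library. With ribosomal RNA left out and cells thinned to 500 counts, the GMP shares were 61.4% and 61.8%.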

How the results depend on the processing

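No paired analysis was possible because each group has 1 library and no result comes from a test. Values are log2 ratios of T1D over control. For the positive share over all cells (-0.04) they were -0.15 thinned to 500 counts, 0.0456 thinned to 1500, -0.13 not thinned, -0.15 with 5 or more genes and 0.10 with at least 500 genes per cell. For GMP (-0.13) they were -0.0548 thinned to 1500, -0.0301 not thinned and 0.0093 with ribosomal RNA left out and thinning to 500 counts together; for immature neutrophils (0.42) 0.17 and for monocytes (0.06) -0.0917, both not thinned. For erythroid cells (-0.02) they were -0.0867 thinned to 500, -0.0874 thinned to 500 with ribosomal RNA left out as well and -0.10 with 5 or more genes. The list's median over all cells (-0.17) was -0.0446 with TMM, -0.0733 with DESeq2 scaling and -0.10 without ribosomal RNA. Genes past the size rule (2) numbered 8 with cycle genes kept in the clustering, 1 at its first start, 7 at resolution 2, 9 at a 10 CPM minimum and 9 at 1.5-fold. Signs turned for Pclaf over all cells (0.0530 with TMM, 0.0237 with DESeq2 scaling), in monocytes (-0.0300 with cycle genes kept) and in mature B cells (0.11 with cycle genes kept, 0.33 at resolution 2), and for Rfc2 in neutrophils with both marker sets (-0.50 at resolution 2). The cause was not tested. Over 10 starts the share ratio ran from 0.909 to 0.938 in GMP and 1.13 to 1.40 in immature neutrophils. Leaving out the 253 shared barcodes, chosen after seeing the data, moved none of the share or median results beyond their tolerance.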
